A study of Mus musculus with 2 samples.

Results

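Dermis-restricted probes are array probes whose signal was at least 8-fold higher in the dermis than in the epidermis of newborn mouse skin. They were 320 of the 20868 named probes, or 1.53%. For each of the 4 scanner files, which hold 1 dye of 1 array each, the local background median was subtracted from the mean signal, results under 50 were set to 50, and the log2 value was centred on the median of all probe spots. The layer difference is the mean of this level over both dyes in the epidermis minus that in the dermis, and a probe was kept at -3 or less. Of the 325 probes that passed, 5 were left out because their epidermal signal differed 2-fold or more between the genotypes. The layer difference and the bound on the epidermal genotype difference are therefore descriptions of the selection and are not tested.

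The skin came from mice of 2 genotypes at postnatal day 3. One genotype was Casp-8F/+K5-Cre, called F/+ here, and the other Casp-8F/–K5-Cre, called F/–. The skin was separated into its layers with the protease dispase. Both genotypes carry K5-Cre, Cre recombinase driven by the keratin 5 promoter of basal keratinocytes, so a floxed caspase-8 allele is a target in the epidermis of both. F/+ mice keep a wild-type copy and F/– mice do not, and the + and – alleles are present in dermal cells as well. One array was hybridized per layer, with F/+ RNA in Cy3 and F/– RNA in Cy5 on both, and each channel held RNA pooled from 3 mice, except the F/– dermis with 2. No swap of the dyes and no second array is given, so genotype and dye cannot be told apart within a layer, nor can layer and array. With 1 array per layer no test between conditions was possible and no p-value is given. The files name probes by the manufacturer's number alone and no gene could be assigned to any of them (0 matched the gene table at hand), so marker genes of fibroblasts, muscle, vessels or keratinocytes could not be used to check the layers.

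The dermis is the connective tissue under the epidermis. Its fibroblasts secrete collagens, elastin and proteoglycans, and it also holds blood and lymph vessels, nerves, immune cells, fat cells and, in mouse skin, a sheet of striated muscle beneath it. The epidermis consists mostly of keratinocytes, which rest on a basement membrane that dispase cuts. Caspase-8 is the initiator protease of the death receptor pathway and also restrains necroptosis, an inflammatory form of cell death, and its loss from keratinocytes is known to cause skin inflammation. A dermis-restricted probe can thus stand for any cell type that is left behind with the dermis, and a lower signal in bulk tissue cannot separate fewer cells of a type from less RNA per cell.

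In both dermal channels all 320 probes exceeded the level that 95% of the 162 negative control spots stayed under. The selection largely fixes this, and 97.9% (Cy3) and 96.8% (Cy5) of all probes exceeded it too. In the F/+ dermis the members' background-subtracted signals ran from 634 to 54683, with a median of 3598 where all probes had 503. The middle 50% of members lay between 1820 and 6752. In the F/– dermis the members' signals ran from 293 to 56018, with a median of 2174 against 329 for all probes and quartiles of 1147 and 5184. In the epidermis the median was 144 in F/+ and 89.4 in F/–, against 456 and 276 for all probes. The quartiles there were 86.9 and 279 in F/+ and 52.4 and 166 in F/–, and the highest members reached 2571 and 2051. The members were thus on the bright side of the dermis array and on the dim side of the epidermis array in both dyes, as the selection requires.

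Most members still gave an epidermal signal above the negative controls. In the F/+ epidermis 303 of 320 (94.7%) exceeded this control level, where 95.7% of all probes did, and in the F/– epidermis 298 (93.1%) did, against 95.4%. Neither dye exceeded it for 15 members. For 75 members the epidermal signal in at least 1 dye was below the floor of 50 or not above the control level, and their layer fold is a lower bound, given as "at least". Among these, 16 were below the floor in both dyes.

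The layer folds, dermis over epidermis, had a median of 17.3 over the members, with quartiles of 10.4 and 32.0. Between 8-fold and 16-fold lay 151 members, between 16-fold and 32-fold 89, between 32-fold and 64-fold 41, between 64-fold and 128-fold 29, and 10 were above. Over all probes the median layer difference was 0.13 on the log2 scale, so the centring left a small offset toward the epidermis. At the edge of the selection were A_51_P493016, A_51_P135802 and A_51_P279552, with layer folds of 8.03, 8.04 and 8.05. Just outside it were A_51_P244497, A_51_P381683 and A_51_P418116, with 7.99, at least 7.98 and 7.97. The values on both sides of the threshold formed one continuous series.

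The strongest layer difference was that of A_51_P416858, 249.9-fold, whose epidermal signals were 165 (F/+) and 96.5 (F/–) against dermal ones of 35189 and 37038. A_51_P458451 followed at 242-fold, with 103 and 58.5 against 23425 and 19764. A_51_P143296 read 107 and 83.2 against 29106 and 23321, a fold of 241. Each of these signals came from 1 spot, and the gap between the layers is what the selection requires. A_51_P246854 had 163 and 111 in the epidermis against 44448 and 28789 in the dermis (233-fold). A_51_P167527, at 184-fold, had 190 and 111 against 26864 and 34929. A_51_P431329, at 149-fold, had 239 and 155 against 29194 and 36743, and A_51_P210510, at 132-fold, had 95.8 and 62.5 against 12410 and 10976. The other 3 of the 10 had a Cy5 signal in the epidermis below the floor. They were A_51_P300487, at least 184-fold, A_51_P467224, at least 169-fold, and A_51_P142813, also at least 169-fold, with dermal signals of 13225 and 10499, 14232 and 9921, and 16096 and 8872. Of these 10 probes, 6 belonged to the brightest 2% of the dermis array.

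The layer difference was close in both genotypes, which were read from the same spots in different dyes and are not independent. Its median was -4.16 within F/+ and -4.09 within F/–, and the median of F/– minus F/+ was -0.0053, with quartiles of -0.28 and 0.31. All 320 members read at least 2-fold higher in dermis in either genotype, and 281 were past 8-fold in both. Within F/+ alone 306 reached 8-fold, the weakest member standing at -2.62. Within F/– alone 295 did, and the weakest was A_51_P132079 at -1.97. For 18 members the genotypes differed by 2-fold or more in this difference, 14 of them less dermal in F/– and 4 more so. The share of all probes with such a gap is not given, so neither this count nor its split sets the members apart. Of the 14, 13 had a layer fold that is a bound (the floor applied to 75 members in the Cy5 epidermis and to 16 in Cy3), and the remaining one, A_51_P132079, had an uneven dermal spot. Over the 245 members without a bound the median of F/– minus F/+ was -0.096, with quartiles of -0.34 and 0.14. The widest gap of a member more dermal in F/– was that of A_51_P515605, with -3.60 in F/+ and -6.23 in F/–. Selecting by F/+ levels alone gave 346 probes, which held 95.6% of the members, the members being 88.4% of that list. Selecting by F/– levels alone gave 310, with 92.2% and 95.2%.

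The 5 probes left out for their epidermal genotype difference are described here once. A_51_P439248 was 25.9-fold higher in dermis, and its epidermal signals were 91.8 in F/+ and 158 in F/–, while its dermal ones were 5095 and 2506. A_51_P461868 behaved in the same directions at a layer fold of at least 75.1, with 49.1 and 66.9 against 6919 and 3630. A_51_P165244 had 54.5 and 66.7 against 860 and 992, and A_51_P338443 had 641 and 797 against 7348 and 6467. The remaining one, A_51_P246345, had 1129 and 273 against 16473 and 2928, but its dermal pixels varied by 1.22 (Cy3) and 1.69 (Cy5) times their mean. The median over all probes was lower in Cy5 than in Cy3 on both arrays, so the 2 signals of a pair are not a genotype ratio as they stand.

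The rule did not use the genotype ratio in the dermis, which was taken as F/– over F/+ (Cy5 over Cy3) within each spot after normexp background correction and loess normalization of the whole array. On this scale the members read somewhat lower in F/–. With subtraction and median centring their overall median was not below that of all probes, but it was within each of 4 ranges of brightness, given below. By loess their median dermal log2 ratio was -0.14, with quartiles of -0.35 and 0.038. All 20868 probes had -0.0041, with quartiles of -0.10 and 0.086. Below 0 lay 224 members, or 70%, against 51.3% of all probes, and above 0 lay 96, or 30%, against 48.7%. The middle of the members' distribution was thus shifted by a small amount. From lowest to highest the members ran from -2.26 to 1.75, with 5% below -0.66 and 5% above 0.31. In the authors' deposited table the median of the 316 members with a value was -0.17 on the log2 scale, and 234 of them (74.1%) were below 0, against 49.1% of all probes.

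The shift differed between scalings, and the cause was not tested. When each array was scaled by 1 median factor instead, the members' median was -0.071, with 187 below 0 (58.4%, against 50.3% of all probes). With the subtraction and median centring that had chosen the members it was 0.055, where all probes had 0.044. That setting changes the background correction as well as the scaling. On it the members' overall median was above 0 and not below that of all probes. Taken within 4 ranges of brightness, which hold 80 members each, the members' median lay below that of all probes of the same range by loess, 1 median factor, subtraction with median centring and in the authors' deposited table. In the dimmest range it was -0.17 by loess and -0.085 by the subtraction scale, against -0.0069 and 0.062 for the 4701 probes there. In the brightest range it was -0.11 and 0.38, against -0.0023 and 0.42 for 1334 probes. In the authors' deposited table these ranges gave -0.16 and -0.20 for the members, against 0.0061 and -0.062.

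Individual members differed more from each other than probes in general did. The interquartile range of the dermal ratio was 0.39 for the members and 0.19 for all probes, and it was 0.36 against 0.24 in the authors' deposited table. In the 4 ranges of brightness the range was 0.32, 0.35, 0.43 and 0.44 for members and 0.22, 0.26, 0.26 and 0.33 for all probes of the same brightness. Repeated spots of one probe on this array differed far less, with a pooled SD of 0.050 over the 50 probes printed 10 times. That SD covers spot noise only and not the spread between mice or pools.

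At least 1.2-fold lower in the F/– dermis were 111 members (34.7%, against 6.82% of all probes), and at least 1.2-fold higher were 27 (8.44%, against 5.04%). With 1 median factor 81 members were lower (25.3%, against 6.88% of all probes on that scale) and 61 higher (19.1%, against 8.08%). With subtraction and median centring 49 were lower (15.3%, against 7.48%) and 86 higher (26.9%, against 20.6%). Past 1.5-fold, 22 members were lower (6.88%, against 0.69% of all probes) and 6 higher (1.88%, against 0.57%). With 1 median factor the split at 1.5-fold was 14 lower (4.38%, against 0.69%) and 18 higher (5.62%, against 1.47%). With subtraction and median centring it was 12 lower (3.75%, against 0.786%) and 23 higher (7.19%, against 5.06%). In the authors' deposited table it was 20 lower (6.33%, against 1.08%) and 5 higher (1.58%, against 0.344%). Without any normalization, where the median of all probes was -0.47, it was 144 lower (45%, against 22.7%) and 4 higher (1.25%, against 0.45%). Of the 22 lower members, 18 came from even spots, and 17 of the 18 that have a value in the authors' deposited table passed 1.5-fold there. Of the 6 higher members, 5 were past it in the authors' deposited table.

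Across classes of layer difference, the median dermal ratio was lower in the more dermal classes by loess and in the authors' deposited table. Within the 320 members the ratio and the layer difference were hardly related, with a Spearman rho of 0.058, and by loess the last 2 classes differed by less than the spot SD. With the same exclusion, the 1440 probes with a layer difference between -2 and -1 had a median dermal log2 ratio of -0.049, the 451 between -3 and -2 had -0.090, the 151 members between -4 and -3 had -0.13, and the 169 members at -4 or less had -0.15. In the authors' deposited table these medians were -0.044, -0.090, -0.14 and -0.20. With 1 median factor they were -0.050, -0.077, -0.12 and -0.0088, so the last step turned back for the most restricted class. By subtraction and median centring they were 0.036, 0.031, -0.0070 and 0.13, with no such order. Of 285 probes chosen by the same rule in the other direction, toward the epidermis, the median by loess was 0.021, with quartiles of -0.092 and 0.15. By loess 0 of them were past 1.5-fold lower in the F/– dermis (0.69% of all probes were) and 2 past 1.5-fold higher (against 0.57%). Their lowest ratio was -0.58 by loess, close to the 1.5-fold limit, and -0.79 in the authors' deposited table. They were selected for a lower signal in the dermis than in the epidermis, so they are unlike the members in brightness. The spread between pools is unknown, so these medians have no error beyond spot noise.

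Among members lower in the F/– dermis, the lowest value from an even spot was that of A_51_P395646. Its dermal signals were 6025 in F/+ and 2071 in F/–, its log2 ratio was -1.12, or 2.18-fold lower, and the authors' deposited table has -1.10. In the epidermis it read 109 and 68.4, a log2 ratio of 0.057. With 1 median factor the epidermal log2 ratio was 0.14, and the authors' deposited table has 0.16. The selection had bounded this ratio and its signals were dim, so no contrast between the layers is drawn from it. A_51_P488368 had dermal signals of 6529 and 2605 and a log2 ratio of -0.94, with -0.91 in the authors' deposited table. A_51_P327511, with 1080 and 391, had -0.85, A_51_P113129, with 3667 and 1475, also had -0.85, and A_51_P493016, with 1597 and 610, had -0.82. These 4 were between 1.77-fold and 1.91-fold lower on the loess scale, and the authors' deposited table has -0.88, -0.83 and -0.84 for the last 3. Of the 10 most restricted members, 8 were below 0 by loess (against 51.3% of all probes), and 2 were past 1.5-fold lower (against 0.69%). Below 0 were 10 of them in the authors' deposited table (against 49.1%) and 3 with 1 median factor (against 50.3%). Of these members, 6 belonged to the brightest 2% of the dermis array. In the brightest of the 4 ranges the median of all probes was -0.0023 by loess. It was -0.062 in the authors' deposited table and 0.29 with 1 median factor. No share for probes of like brightness is given, so these counts do not set the 10 apart. A_51_P246854 had a dermal log2 ratio of -0.72 and A_51_P142813 one of -0.70, with -0.98 and -0.66 in the authors' deposited table, but with 1 median factor these were -0.15 and -0.38.

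The 3 lowest dermal ratios came from uneven spots. Past 2-fold lower were 4 members (1.25%, against 0.0815% of all probes), and 1 remained without such spots. The share of all probes without such spots is not given, so this 1 has no like comparison. An uneven dermal spot was found for 4 of the 320 members and for 16 of all 20868 probes. A_51_P132079, with a ratio of -2.26, had dermal pixels that varied by 1.35 (Cy3) and 1.17 (Cy5) times their mean, A_51_P505372 (-1.51) by 2.77 and 4.03, and A_51_P318620 (-1.39) by 0.70 and 0.72. With median pixel signals their ratios were -0.92, -1.01 and -1.31. The authors' deposited table gives no dermal value for any of these 3, nor for the fourth member with an uneven dermal spot. In the 5 members from even spots given above, from A_51_P395646 to A_51_P493016, the same measure was between 0.031 and 0.062.

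Past 2-fold higher in the F/– dermis were 3 members (0.938%, against 0.235% of all probes). A_51_P387239 had dermal signals of 1913 in F/+ and 3303 in F/–, a log2 ratio of 1.21 or 2.31-fold, and 1.2 in the authors' deposited table. A_51_P194099 had 1190 and 1865, a ratio of 1.11 or 2.15-fold, and 1.10 in the authors' deposited table. Both kept their value with 1 median factor, at 1.25 and 1.10. A_51_P515605 read 15448 and 53562, a log2 ratio of 1.75, but it belonged to the brightest 2% of the array, and the authors' deposited table has 0.86, under 2-fold. A_51_P182303, as bright, read 26782 and 56018, a ratio of 0.95 by loess, 1.54 with 1 median factor and 0.077 in the authors' deposited table. A_51_P407025 (0.67), A_51_P235945 (0.63), A_51_P267754 (0.56) and A_51_P215627 (0.38) completed the 8 highest, and the authors' deposited table has 0.68, 0.63, 0.58 and 0.38 for them. For other members the sign differed between scalings. A_51_P416858, A_51_P167527 and A_51_P431329, which are among the 10 strongest in layer difference, had ratios of -0.027, 0.32 and 0.25 by loess, 0.55, 0.85 and 0.80 with 1 median factor, and -0.53, -0.17 and -0.27 in the authors' deposited table. Of members outside the brightest 2%, A_51_P300487 had -0.17 by loess and 0.14 with 1 median factor, and A_51_P210510 had -0.014 and 0.30.

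A pair of members was printed in 10 spots and gives the spot error directly. A_51_P279552 had a layer difference of -3.01 ± 0.16 (SD, n = 10 spots), with spots from -3.36 to -2.70, so its spots fell on both sides of the threshold. Its dermal signals ran from 4962 over a median of 6269 to 6966 in F/+ and from 2949 over 3655 to 4048 in F/–, and those in the epidermis from 402 over 650 to 815 and from 264 over 427 to 582. Its dermal log2 ratio was -0.41 ± 0.033 and its epidermal one 0.087 ± 0.074. A_51_P505868 had a layer difference of -3.24 ± 0.18, a dermal ratio of -0.36 ± 0.019 and an epidermal one of -0.039 ± 0.054. For both, every spot was below 0 in the dermis, from -0.46 to -0.36 and from -0.39 to -0.33, while in the epidermis spots lay on both sides of 0. With subtraction and median centring the dermal ratios were -0.16 and -0.24.

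In the epidermis the members' genotype ratios were centred on 0 by loess, whereas with 1 median factor their median was 0.077, and 108 (33.8%) were below 0, against 50.2% of all probes on that scale. The selection had bounded them below 2-fold, so only their place within that bound is described. By loess the median was 0.0030, with quartiles of -0.073 and 0.10. Below 0 were 158 of 320 (49.4%, against 50.3% of all probes) and above 0 were 162 (50.6%, against 49.7%). None was 2-fold higher or lower, where 0.934% and 0.302% of all probes were, which the selection largely fixes. The interquartile range was 0.18, smaller than the 0.22 of all probes, at signals where the offset of 50 shrinks ratios; with an offset of 0 both were larger, at 0.28 and 0.29. At least 1.2-fold, 30 members were higher (9.38%, against 8.87% of all probes) and 14 lower (4.38%, against 10.4%). Past 1.5-fold, 5 members were higher (1.56%, against 2.5% of all probes) and 2 lower (0.625%, against 1.85%). With offset 0 there were 12 higher (3.75%, against 3.13%), with a floor of 50 before loess 9 (2.81%, against 2.86%), with subtraction and median centring 30 (9.38%, against 9.35%), and without normalization 0 (against 0.896%). The authors' deposited table has 11 higher (3.56%, against 1.96%). By loess with the offset of 50, the shares past 1.5-fold were below those of all probes. The shares of all probes include probes past 2-fold, 0.934% and 0.302% by loess, which the selection largely removed from the members. A lower share of members past a fold therefore follows in part from the selection, and none of these comparisons is like for like. The share higher was above that of all probes with offset 0 and in the authors' deposited table.

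The 5 higher in the F/– epidermis were A_51_P119659 (log2 ratio 0.75), A_51_P383524 (0.72), A_51_P282508 (0.65), A_51_P387239 (0.63) and A_51_P426353 (0.63). The 2 lower were A_51_P378870 (-0.82) and A_51_P186741 (-0.59). They were listed after their values were seen, except A_51_P387239. Epidermal signals of A_51_P119659 were 308 (F/+) and 341 (F/–) against dermal ones of 5299 and 4237, and its dermal ratio was 0.032. Those of A_51_P378870 were 417 and 127 against 4838 and 2894, with a dermal ratio of -0.34. A_51_P387239 was the 1 member past 1.5-fold in both layers, higher in F/– in each, with 135 and 146 in the epidermis. No member was past 1.5-fold in opposite directions.

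Both layers' ratios were weakly related across the members, at 0.21 (Pearson) and 0.18 (Spearman) over 320 probes, and 0.23 and 0.19 over the 314 without uneven spots. Over all 20868 probes they were 0.31 and 0.24. Probes share arrays and RNA pools, and both arrays have the same dye orientation, so these values are descriptions. Of the 224 members below 0 in the dermis, 122 were also below 0 in the epidermis. Of the 96 above 0 in the dermis, 60 were above 0 in the epidermis. Over all 320 members, 158 (49.4%) were below 0 in the epidermis and 162 (50.6%) above. The 18 members from even spots that were at least 1.5-fold lower in the F/– dermis had epidermal ratios between -0.23 and 0.26, with a median of -0.052 and 10 of 18 below 0.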

How the data were processed

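Each deposited scanner file holds pixel intensities of 1 dye of 1 array, which spot-finding software at version 5.0 read within a circle of fixed size, per the file headers. Signal and local background stand in separate columns. The authors also deposited a table of log10 ratios of Cy5 over Cy3. Its direction and scale were set by comparison with the scanner signals (slopes of 0.298 and 0.308 per log2 unit over the lower intensities), its column medians were -0.0025 and 0.0014, and its normalization is not stated in the labels or the file. It is printed here on the log2 scale. Each array had 22575 spots, 21318 of them probe spots.

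The tools were limma 3.58.1 and R 4.3.3. Mean signals were corrected by normexp (offset 50), each array was normalized by loess (span 0.3) with control spots at weight 0, and the spots of a probe were averaged into its ratio. Levels for the layer difference were centred per file as described above. A spot was uneven where its pixel SD exceeded 0.5 times its mean. The steps were tested on simulated data. No test between conditions was run, since the number of arrays limits the precision.

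The members, and the lists meant for gene names, were chosen with earlier results of these data known; the gene lists could not be applied. Named probes are the 10 with the strongest layer difference, the 8 highest and 8 lowest in dermal ratio, those past 2-fold in the dermis, past 1.5-fold in both layers or printed more than once, the 3 on each side of the threshold and those left out; others are marked. Alternatives covered background, scaling, pixel statistic, filters, channels, thresholds and the deposited table.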

Additional observations from a re-analysis of the deposited data

How the results depend on the processing

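Thresholds of 4-fold and 16-fold gave 771 and 169 dermis-restricted probes, which follows from the threshold, and 9 other settings gave between 248 and 346. The members' median dermal log2 ratio moved by more than the SD of single repeated spots, the sole spread at hand, with 1 median factor (-0.071), without normalization (-0.54) and with subtraction and median centring (0.055), and the epidermal one without normalization (-0.48) and with subtraction and median centring (0.091); with 1 median factor it was 0.077. In the dermis, 1 median factor gave 61 members 1.2-fold higher (19.1%, against 8.08% of all probes). At 1.5-fold it gave 18 members higher (5.62%, against 1.47%) and 14 lower (4.38%, against 0.69%). Without normalization the members were 10 higher (3.12%, against 0.925% of all probes) and 247 lower (77.2%, against 88.3%) at 1.2-fold. They were 144 lower (45%, against 22.7%) at 1.5-fold and 26 lower (8.12%, against 1.07%) at 2-fold. Subtraction and median centring gave 86 higher and 49 lower at 1.2-fold (20.6% and 7.48% of all probes), 23 and 12 at 1.5-fold (5.06% and 0.786%), and 5 and 2 at 2-fold (0.68% and 0.0575%). At 2-fold, 1 member was lower in the authors' deposited table (0.316%, against 0.0582% of all probes). Without uneven spots 1 was lower, a setting that removes such spots by construction, and no share of all probes is given for it. In the epidermis at 1.5-fold, members higher and lower were 12 and 4 with offset 0 (3.13% and 2.71% of all probes). With a floor of 50 before loess they were 9 and 4 (2.86% and 2.42%). Without normalization they were 0 (against 0.896%) and 85 (26.6%, against 44.5%). With subtraction and median centring they were 30 and 4 (9.35% and 2.15%). The authors' deposited table has 11 higher (3.56%, against 1.96%). By 1 median factor 1 was lower (0.312%, against 2.75%), and by median pixels also 1 (0.312%, against 1.87%). Apart from the thresholds and the removal of spots, the cause was not tested. Subtraction with median centring, the 1.2-fold limit and the members chosen by 1 genotype or another threshold were added after seeing the data. Of 485 alternative ratios of the 35 named members, 263 moved by less than the spot SD and 222 by more, and 7 of those past 2-fold were no longer so; none past 2-fold changed sign. Of 113 alternative layer differences of these members, 94 moved by more than the SD of the dermal ratio between spots (0.050) and 19 by less. The layer difference itself had a larger SD between spots, 0.16 in A_51_P279552 and 0.18 in A_51_P505868. A move counted here can therefore be smaller than that SD. All settings draw on the same arrays, so the SD serves as a yardstick of size only. No paired analysis was possible because each layer has 1 array and the labels give no replicate numbers, and no array could be left out. Dim epidermal signals limit the layer folds, and the single array per layer limits everything else.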

Other observations

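No spot outside the named probes reached the 8-fold layer difference, but for dim spots the floor on the signal fixes this in advance. Of 521 spots without an ID, 100 were above the negative control limit in at least 1 dermal channel. That limit was 49.2 (Cy3) and 28.7 (Cy5) in the dermis, both under the floor. The dimmest member had a dermal Cy3 signal of 634, so a spot above the limit can still be too dim to pass. These spots therefore do not test the rule. By the same rule none of the 521 reached the 8-fold layer difference, the lowest value being -2.84 on the log2 scale. Among the 162 negative control spots the lowest was -1.88, and among the other 574 control spots -1.10. By position, the upper left, upper right, lower left and lower right of the array held 102, 81, 56 and 81 members, or 2%, 1.52%, 1.1% and 1.52% of the probes printed there. The members' median dermal log2 ratio by loess was -0.13, -0.19, -0.18 and -0.093 in these areas, where all probes had -0.027, -0.0062, 0.0032 and 0.011, so it lay below that of all probes in each of the 4.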
